A study of Mus musculus with 3 samples.

Results

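Integrins and laminins are the receptors and the ligands through which skin cells hold to their basement membranes. All genes that encode an integrin alpha or beta chain or a laminin alpha, beta or gamma chain were taken by symbol, and genes for integrin-binding proteins and the integrin-like Itgbl1 were left out. This gave 38 of the 31053 listed genes: 18 integrin alpha, 9 integrin beta, 5 laminin alpha, 3 laminin beta and 3 laminin gamma chains. Their transcripts were read in 3 droplet single-cell libraries of mouse dorsal skin, each a group of its own. The young control was 2.5 months old, carried floxed alleles (Yap1 fl/fl; Wwtr1 fl/fl) and had no Cre. The young YAP/TAZ knockout had the same age and alleles plus R26-CAG-CreER, a Cre that is active under tamoxifen in all tissues, so that the deletion is not limited to 1 cell type. Both were gavaged with tamoxifen (0.11 mg per g of body weight, 2 days each week, over 4 weeks). The old control, at 24 months, was untreated and wild-type, so that against the young control it differs in age, floxed alleles and tamoxifen together, which cannot be told apart.

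An integrin is a pair of 1 alpha and 1 beta chain that spans the membrane, and the pair decides the ligand. Alpha 3, alpha 6 and alpha 7 chains form laminin receptors, alpha 1, alpha 2, alpha 10 and alpha 11 collagen receptors, and alpha 5, alpha 8 and alpha V receptors for fibronectin and other proteins with an RGD motif, while alpha L, M, X, D and E chains belong to leukocytes. Most alpha chains pair with beta 1. Beta 4 pairs with alpha 6 alone, in hemidesmosomes, the rivets of basal keratinocytes. A laminin is a trimer of 1 alpha, 1 beta and 1 gamma chain. Lama3 and Lamb3 chains lie under the epidermis, Lama4 and Lama5 chains under endothelium, and Lama2 around muscle and nerve. YAP and TAZ (gene Wwtr1) are transcriptional coactivators that bind DNA through TEAD factors, and matrix and adhesion genes are among their known targets.

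Promoter windows of 300 bases, 250 before to 50 after the start of transcription, were available from RefSeq (GRCm38.p6) for 24 of the 38 chains, in 27 windows. The windows of 3 integrin genes are shown because these genes had ratios on the same side of 1 in most cell classes of the knockout. Capitals mark the core of the TEAD motif, GGAATG on either strand.
Itgb1: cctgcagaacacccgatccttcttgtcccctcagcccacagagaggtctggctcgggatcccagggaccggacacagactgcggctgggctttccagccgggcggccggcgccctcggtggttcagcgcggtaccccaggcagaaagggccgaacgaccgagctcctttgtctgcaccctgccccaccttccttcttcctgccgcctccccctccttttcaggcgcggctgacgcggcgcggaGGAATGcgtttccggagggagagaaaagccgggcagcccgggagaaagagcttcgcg
Itga1: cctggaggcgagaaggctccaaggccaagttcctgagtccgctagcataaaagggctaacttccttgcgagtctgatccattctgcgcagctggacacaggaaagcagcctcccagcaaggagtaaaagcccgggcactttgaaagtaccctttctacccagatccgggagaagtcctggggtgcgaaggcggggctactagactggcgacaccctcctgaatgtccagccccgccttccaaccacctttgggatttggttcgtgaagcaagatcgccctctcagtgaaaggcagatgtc
Itgb5: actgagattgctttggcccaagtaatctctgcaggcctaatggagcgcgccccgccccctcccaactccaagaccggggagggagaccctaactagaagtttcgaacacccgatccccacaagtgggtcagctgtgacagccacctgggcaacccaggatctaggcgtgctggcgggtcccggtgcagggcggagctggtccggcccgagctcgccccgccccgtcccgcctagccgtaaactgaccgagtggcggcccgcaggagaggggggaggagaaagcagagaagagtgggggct
The first lies at chr8:128685404-128685703 on the plus strand, the second at chr13:115101915-115102214 on the minus strand and the third at chr16:33829415-33829714 on the plus strand. Itgb1, the common beta chain, holds 1 TEAD core, which begins 7 bases before the start, and Itga1 and Itgb5 hold none in this window. Over all chains, 3 of 27 windows (11.1%) held the TEAD core, those of Itgb1, Itga10 and Lamb3, and it stood in 14.7% of all 32851 RefSeq windows. The AP-1 motif was read as TGANTCA, with any base in the middle, which is its own reverse complement and does not overlap the TEAD core. It stood in 3 of 27 windows (11.1%), against 7.81% of all windows. The letters were TGAATCA for Itga3, TGACTCA for Itga9 and TGAGTCA for Itgax. The chains' share of either motif was thus near that of promoters in general.

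After filters 10784 cells remained in the young control, 8655 in the knockout library and 11108 in the old control. Before them, 62.4% of the knockout barcodes were over 15% mitochondrial UMIs, against 12.3% and 19.4%. Cells were grouped into 13 classes by fixed markers, none of them a member, and 9 classes with at least 50 cells in each library were compared. A class is written "-like" because it rests on markers alone. In all, 80.7% of knockout, 37.5% of old control and 11.3% of young control cells belonged to clusters without a class, so the compared knockout cells are a small share of that library (54 to 773 cells a class). The targeted Wwtr1 was lower in the knockout in 9 of 9 classes (ratios 0.0123 to 0.218). Yap1 was less evenly so: its ratios ran from 0.173 to 1.12 and were below 1 in 8 of 9 classes. Its interval for counting error lay below 1 in 6 of 9. The Yap1 ratio was 1.12 (0.909 to 1.37) in dermal papilla or sheath-like cells and 0.769 (0.607 to 0.972) in mural-like cells. Xist was at 1686 CPM in young control cells, at 0.208 in knockout cells and at 1381 in old ones, and the Y-linked Ddx3y at 0, 115 and 0, so genotype and sex cannot be told apart. Pairs of libraries shared 127 to 198 barcodes.

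Levels are CPM: the unique molecular identifiers (UMIs) of a gene, summed over the cells of a class and scaled to a total of 1000000 in that class. The 3' method counts each captured transcript once whatever its length, so levels of different genes can be set side by side. There is 1 library a group, so no test across samples exists. The ranges in parentheses after a ratio are exact 95% intervals that cover counting error only and say nothing of the spread between animals. Where 3 levels stand together, they are those of the young control, the knockout and the old control, in this order.

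At 100 CPM or more in at least 1 compared class stood 23 chains (young control), 25 chains (knockout) and 18 chains (old control). Another 10, 7 and 14 reached 20 CPM, and 5, 6 and 6 stayed below it in every compared class. Itga10, Itgad, Itgb2l, Itgb6 and Lama1 were below 20 CPM in all 3 libraries, and Itga11, a collagen receptor chain of fibroblasts, in the knockout and the old control.

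**Figure D1:**
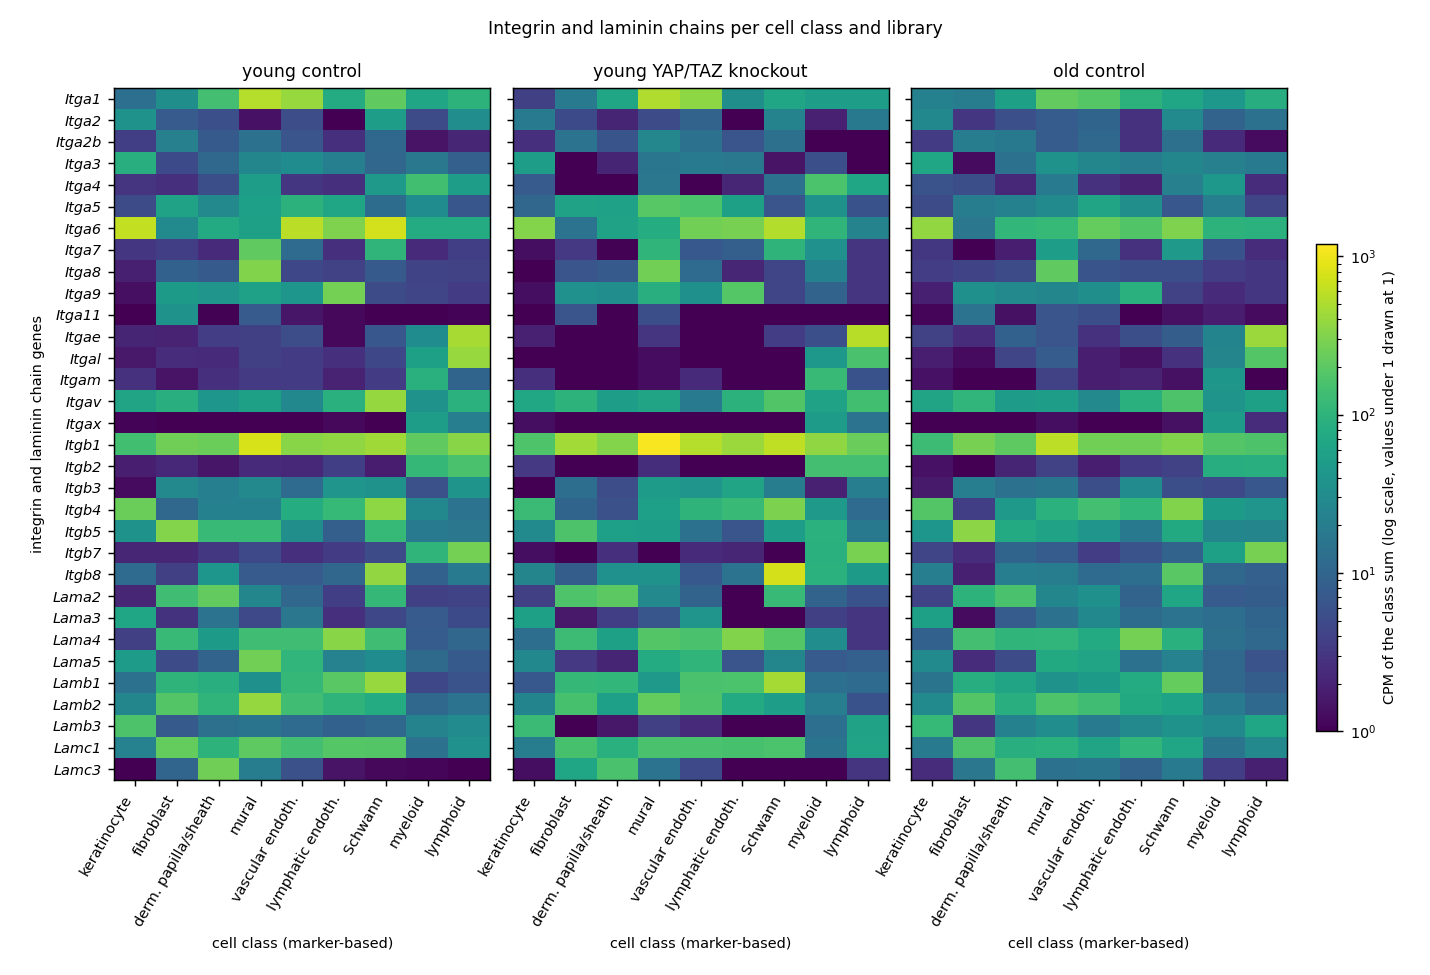
Levels of chains that reached 20 CPM in at least 1 compared class (rows; 1 such chain is not drawn) in each class and library (columns), as CPM on a logarithmic colour scale. Itgb1 is bright in every column, Itgae and Itgb7 in the lymphoid-like columns, and Lamb3 in the keratinocyte-like ones.

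Each class had its own set. In keratinocyte-like cells Itga6 led the alpha chains, at 619, 321 and 375 CPM. Its hemidesmosome partner Itgb4 was at 247, 126 and 179 CPM, first of the beta chains in both controls and second to Itgb1 (172 CPM) in the knockout. Of the epidermal laminin, Lamb3 was at 168, 127 and 116 CPM and Lama3 at 66.8, 56.6 and 56.6 CPM. In Schwann-like cells, which wrap axons and make their own basement membrane, Itga6 was at 742, 537 and 303 CPM, Itgb4 at 356, 295 and 311 CPM, and Lamb1 at 406, 464 and 224 CPM. Over the classes of a library Itga6 and Itgb4, the 2 chains of the hemidesmosome receptor, had a Spearman correlation of 0.81 (13 classes), 0.93 (9) and 0.95 (11). Lamb2 and Lamc1, chains of the same trimers, had 0.89, 0.68 and 0.85. Lama3 and Lamb3 of the epidermal laminin had 0.10, 0.73 and 0.30, and the integrin pair Itgae and Itgb7 had 0.52, 0.41 and 0.90. Itgav and Itgb8, which form the receptor that activates TGF-beta, had -0.02, 0.38 and 0.10. These correlations describe classes that share a library and its free RNA.

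Mural-like cells (smooth muscle and pericytes) had the highest Itgb1 level of the compared classes, at 780, 1122 and 586 CPM. They also led in Itga1, a collagen and laminin receptor chain, at 552, 514 and 217 CPM, and in Itga8, a receptor chain of contractile cells, at 310, 263 and 210 CPM. Lamb2 was at 391, 224 and 169 CPM there. Lymphatic endothelial-like cells had the highest Lama4, at 336, 314 and 275 CPM, and Itga9, which lymphatic valves need, at 276, 185 and 89.9 CPM. Vascular endothelial-like cells paired Itga6 (573, 262 and 222 CPM) with Itga1 (405, 359 and 183 CPM). In fibroblast-like cells Itgb5, a partner of alpha V, was at 323, 165 and 352 CPM, next to Itgb1 at 261, 453 and 279 CPM. Dermal papilla or sheath-like cells, the mesenchyme of the hair follicle, had the highest Lamc3, at 256, 157 and 143 CPM.

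Leukocyte classes carried the leukocyte chains. In lymphoid-like cells Itgae was at 481, 554 and 409 CPM and its partner Itgb7, with which it holds T cells in the epidermis by binding E-cadherin, at 271, 287 and 283 CPM. In myeloid-like cells Itgb2 was at 112, 145 and 82.8 CPM and its partner Itgax, a dendritic cell chain, at 53.2, 49.5 and 50.1 CPM. Mast-like cells, with enough cells in the young control alone, had Itga2 at 252 CPM and Itga9 at 169 CPM.

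Knockout against young control. A chain counts as higher or lower here when 3 things hold: a mean of 20 CPM or more over the libraries, a 2-fold or larger ratio (0.5 or less when lower), and an interval whose end nearer to 1 is beyond 1.5-fold. Of 138 pairs of a chain and a class that could be read, 7 were higher (5.07%) and 15 lower (10.9%). Over all genes in the same classes the rule took 2.99% as higher and 4.74% as lower. Ratios below 1 made up 79 of the 138 (57.2%), with a median of -0.12 on the log2 scale. By class the median of all genes lay between -0.104 (vascular endothelial-like) and 0.166 (fibroblast-like). That of the chains lay between -0.362 (keratinocyte-like) and 0.346 (myeloid-like). It was above that of all genes in mural-like, myeloid-like and vascular endothelial-like cells and below it in the other classes. By class, 4 of 17 chains were lower in Schwann-like cells (7.05% of all genes there), 4 of 20 in mural-like cells (6.85%), 3 of 15 in dermal papilla or sheath-like cells (5.56%), 2 of 15 in lymphoid-like cells (3.39%), and 1 each in vascular endothelial-like (3.17%) and myeloid-like cells (3.74%). Higher were 3 of 20 in mural-like (2.47%), 2 of 16 in myeloid-like (4.27%), 1 of 14 in fibroblast-like (4.08%) and 1 of 15 in dermal papilla or sheath-like cells (4.97%). No chain passed in the keratinocyte-like class (2.52% of all genes higher, 5.49% lower) or in the lymphatic endothelial-like class (1.54% and 3.28%). Within the keratinocyte-like cluster 13, 2 of 16 chains were lower (4.32% of all genes), Itga1 on 3 and Lamb1 on 2 knockout UMIs. No chain was higher in Schwann-like (2.68%), lymphoid-like (2.95%) or vascular endothelial-like cells (1.43%), and none lower in fibroblast-like cells (3.82%).

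**Figure D2:**
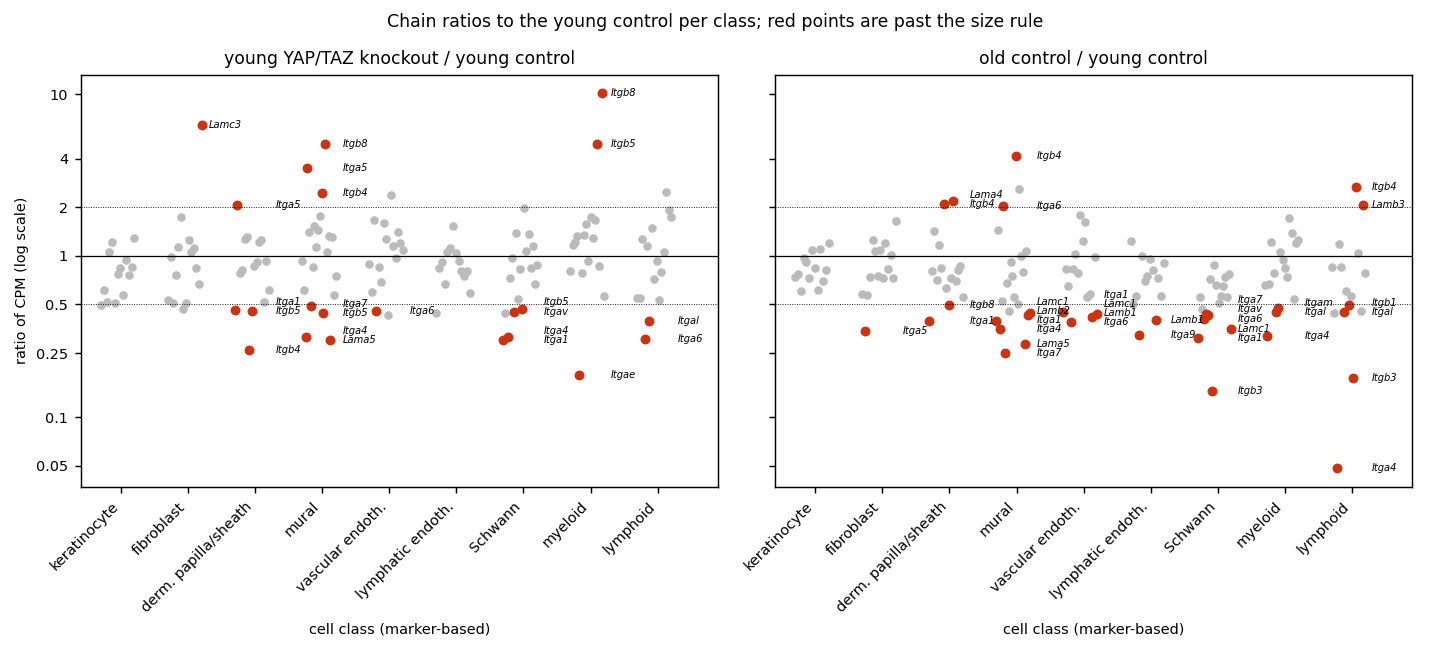
Ratio of CPM, knockout or old control over young control, of each chain in each compared class on a logarithmic axis; each point is a chain with a mean of at least 20 CPM and red points passed the size rule. Lower red points outnumber higher ones 15 to 7 on the knockout side, and 28 to 6 on the old control side.

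The shared beta chain Itgb1 (chr8, 128685654 to 128733200, plus strand) had a knockout ratio above 1 in 8 of 9 classes and passed the rule in none. It was at 453 CPM against 261 in fibroblast-like cells (1.73, 1.53 to 1.96), 373 against 214 in myeloid-like cells (1.75, 1.49 to 2.03) and 543 against 339 in vascular endothelial-like cells (1.60, 1.38 to 1.85). In mural-like cells it was at 1122 CPM against 780 (1.44, 1.35 to 1.53), in Schwann-like cells at 610 against 441 (1.38, 1.25 to 1.53), and in keratinocyte-like cells at 172 against 140 (1.22, 1.08 to 1.38). Dermal papilla or sheath-like cells had 322 CPM against 246 (1.31, 1.18 to 1.45). In lymphatic endothelial-like cells, at 413 CPM against 369, the interval of 0.957 to 1.30 held 1. Lymphoid-like cells went the other way, with 240 CPM against 336 (0.714, 0.563 to 0.895). Split into clusters, the ratio was above 1 in 16 of 17 clusters and its interval above 1 in 15, among them 4 of 4 clusters that have no class. In cluster 0, which has no class, the median log2 ratio of all genes was itself 0.646, and in the fibroblast-like cluster 2 it was 0.205. In the other clusters without a class, 25, 30 and 32, that median was 0.0407, 0.0573 and -0.114. Both other scalings gave 8 of 9 classes as well. With cells thinned to 1500 UMIs it was again 8 of 9, but the interval cleared 1 in 2 classes only, and without the cell richest in Itgb1 in each library it was 7 of 9.

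**Figure D3:**
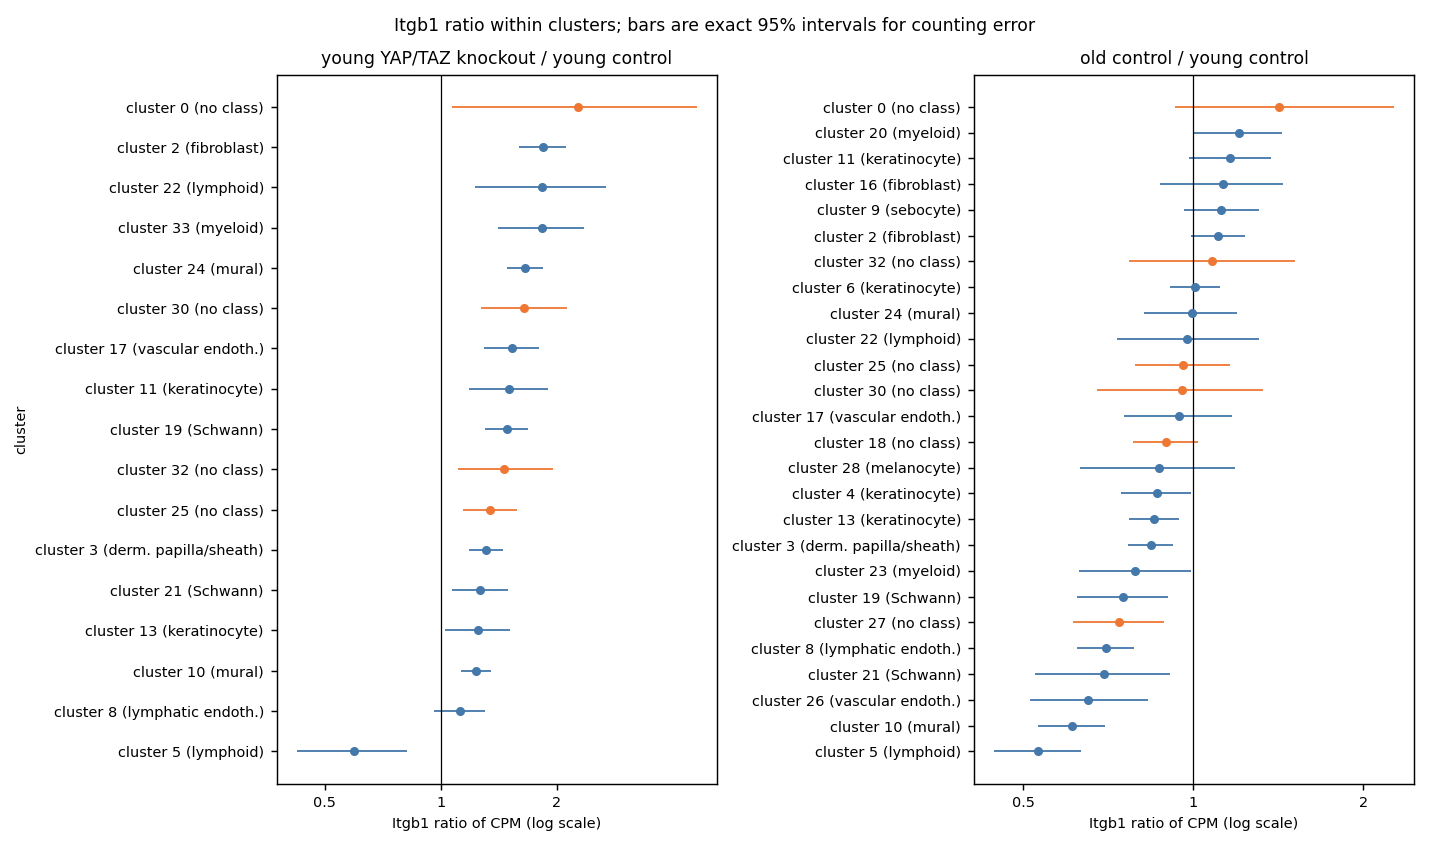
Ratio of Itgb1 CPM, knockout over young control, within each cluster with enough cells in both libraries, with its exact 95% counting interval; blue clusters belong to a class and orange ones to none. Of 17 clusters 16 lie above 1, and a lymphoid-like cluster lies below it.

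Among collagen receptor chains, Itga1 (chr13, 114953096 to 115101964, minus strand) had a ratio below 1 in 8 of 8 classes, with 5 intervals below 1. It passed the rule in Schwann-like cells, at 63.8 CPM against 211 (0.302, 0.236 to 0.382), and in dermal papilla or sheath-like cells, at 66.5 CPM against 145 (0.460, 0.376 to 0.559). The first call stood in 11 of 12 alternatives and was lost with doublets kept. The second stood in 10 of 12 (0.445 to 0.672) and was lost with doublets kept and with cells thinned to 1500 UMIs. In the Schwann-like class the level came from the cluster led by the nonmyelinating gene Scn7a, where Itga1 was at 191 CPM against 473 (0.403, 0.310 to 0.519). In the myelinating cluster it was near the background, at 13.2 CPM against 16.2. Mural-like cells, with the highest level, had 514 CPM against 552 (0.931, 0.859 to 1.01). Under median-of-ratios scaling 7 of 8 ratios were below 1.

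The RGD-binding chains differed in direction. Itgb5 (chr16, 33829665 to 33949338, plus strand) had a ratio below 1 in 6 of 7 classes. It was at 53.6 CPM against 114 in Schwann-like cells (0.470, 0.355 to 0.617), a call that stood in 5 of 12 alternatives (0.448 to 0.684). In the dermal papilla or sheath-like class it was at 54.9 against 121 (0.453, 0.362 to 0.561), and in mural-like cells at 53.0 against 120 (0.441, 0.354 to 0.549). Both of these Itgb5 calls were lost with cells thinned to 1500 UMIs, and the mural-like one also with clusters weighted as in the young control. In fibroblast-like cells, its site of highest level, it was at 165 CPM against 323 (0.512, 0.416 to 0.624), just outside the rule. Within the larger fibroblast-like cluster it was at 160 CPM against 329 (0.485, 0.384 to 0.606). Within the mural-like clusters the difference was smaller: Itgb5 was at 41.7 CPM against 58.0 within smooth muscle-like cells and at 101 against 153 within the cluster led by the pericyte gene Rgs5. Myeloid-like cells had Itgb5 at 91.4 CPM against 18.5 (4.93, 3.42 to 7.02), from 48 UMIs in 12 of 62 knockout cells. Within their macrophage cluster, with 36 of these cells, 7 of 12 chains were higher (4.31% of all genes). A single cell of 54547 UMIs held 30 of the 45 Itga6, 17 of the 18 Itga7 and 11 of the 22 Itgb4 UMIs, and without it 2 chains passed, Itgb5 (3.43, 2.02 to 5.80) and Itga1 (4.95, 2.05 to 12.5). Itgav, its partner, was at 175 CPM against 387 in Schwann-like cells (0.452, 0.388 to 0.524) and passed in no other class.

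The fibronectin receptor chain Itga5 was higher in mural-like cells, at 191 CPM against 54.6 (3.50, 2.85 to 4.33). Within smooth muscle-like cells it was at 232 CPM against 87.1 (2.67, 2.05 to 3.53), and in the Rgs5-led cluster at 17.5 against 37.6, where the interval of 0.191 to 0.988 rests on 8 UMIs. Knockout mural-like cells were mostly smooth muscle-like (688 of 773), and those of the young control mostly of the Rgs5-led cluster (312 of 390). With clusters weighted as in the young control none of the 7 mural-like calls passed, and the ratio of Itga5 was 1.67. In dermal papilla or sheath-like cells Itga5 was at 57.5 CPM against 27.8 (2.07, 1.57 to 2.73), but with cells thinned to 1500 UMIs the ratio was 0.982. Vascular endothelial-like cells had 160 CPM against 95.6 (1.68, 1.26 to 2.20), and fibroblast-like cells 58.9 against 59.8.

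Of the laminin receptor chains, Itga6 was lower in vascular endothelial-like cells, at 262 CPM against 573 (0.457, 0.374 to 0.555), and as low within their larger cluster, at 266 against 592 (0.449, 0.362 to 0.552). It was also lower in lymphoid-like cells, at 23.7 CPM against 77.3 (0.306, 0.131 to 0.612), on 8 knockout UMIs. Keratinocyte markers were lower in the knockout lymphoid-like cells as well, and their part in this ratio was not tested. In keratinocyte-like cells Itga6 was at 321 CPM against 619 (0.519, 0.474 to 0.567) and Itgb4 at 126 against 247 (0.511, 0.441 to 0.589). The clusters behind that class were filled unequally, and within the clusters that hold knockout cells the difference was smaller: Itga6 was at 432 CPM against 516 (0.838, 0.729 to 0.960) in cluster 13 and 210 against 259 (0.811, 0.679 to 0.963) in cluster 11. Lamb3, at 240 CPM against 228 in cluster 13, had an interval that held 1 (0.870 to 1.27).

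Mural-like Itga7, which binds laminin in muscle, was at 104 CPM against 214 (0.485, 0.414 to 0.568), but at 65.1 against 62.2 within smooth muscle-like cells and 267 against 294 in the Rgs5-led cluster. Itga4, a receptor chain for Vcam1 and fibronectin, was lower in the mural-like class, at 16.4 CPM against 52.2 (0.314, 0.212 to 0.457), and in the Schwann-like class, at 14.5 CPM against 46.3 (0.313, 0.182 to 0.516). The integrin Itgal, which lets lymphocytes bind Icam1, was at 157 CPM against 399 in lymphoid-like cells (0.393, 0.293 to 0.517). Its neighbours on these cells, Itgae at 554 CPM against 481 (1.15, 0.986 to 1.34) and Itgb7 at 287 against 271 (1.06, 0.853 to 1.31), had intervals that held 1. Myeloid-like Itgae was at 5.71 CPM against 31.2 on 3 knockout UMIs, and was over 10 times more abundant in another class.

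Itgb8, which with alpha V frees active TGF-beta, was at 759 CPM against 384 in Schwann-like cells (1.97, 1.79 to 2.18), just under the rule. In the Scn7a-led Schwann-like cluster it was at 733 against 279 (2.62, 2.19 to 3.15). Mural-like cells had 37.4 CPM against 7.60 (4.93, 2.88 to 9.0), where Itgb4 also was higher, at 54.7 CPM against 22.3 (2.45, 1.74 to 3.50). Schwann markers summed to 4.62% of the Schwann-like level in those knockout cells, against 0.645% in the young control, and their part in both ratios was not tested. The myeloid-like value of Itgb8, 91.4 CPM against 9.0, came from 48 UMIs in 2 cells, 47 of them in that same cell of the macrophage cluster, and without the richest cell of each library the ratio was 0.284.

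Only 1 laminin chain was higher: Lamc3 (chr2, 31887291 to 31946539, plus strand), a gamma chain found outside the usual epithelial basement membranes. It was at 65.4 CPM in knockout fibroblast-like cells, 10.2 in the young and 16.7 in the old control (knockout ratio 6.44, 4.40 to 9.22). The knockout value comes from 40 UMIs in 18 of 89 cells. It was also higher within the larger cluster, at 73.9 CPM against 15.8 (4.69, 3.16 to 6.81), and without the richest cell of each library (5.42). In dermal papilla or sheath-like cells, where Lamc3 is most abundant, it was at 157 CPM against 256 (0.614, 0.537 to 0.699). The laminin chain on the lower side was Lama5, at 79.1 CPM against 264 in mural-like cells (0.300, 0.253 to 0.354). Within both of their clusters the ratio was nearer to 1, at 53.6 CPM against 94.0 (0.571, 0.416 to 0.787) in smooth muscle-like cells and 186 against 353 (0.527, 0.414 to 0.665) in the Rgs5-led ones. Itgb4 in dermal papilla or sheath-like cells (5.81 CPM against 22.3, ratio 0.260) moved with keratinocyte markers, which stood at 1.06% of the keratinocyte-like level there in the knockout and 5.86% in the young control. The part of these markers was not tested. The call stood in 9 of 12 alternatives (0.0760 to 2.66), reversed in 1 and was lost with cells thinned to 1500 UMIs.

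Old against young control. The old control had fewer transcripts of most chains: 103 of 138 ratios were below 1 (74.6%), with a median of -0.44 on the log2 scale. By the same rule 28 pairs were lower (20.3%) and 6 higher (4.35%), beside 3.44% lower and 2.67% higher over all genes. In the 9 classes the median of the chains lay below that of all genes, by the most in Schwann-like cells (-0.85 against -0.10). Lower were 6 of 17 chains in Schwann-like cells (4% of all genes there), 6 of 20 in mural-like (5.05%), 4 of 15 in vascular endothelial-like (5.04%), 4 of 15 in lymphoid-like (4.22%), 3 of 16 in myeloid-like (4.18%), 2 of 15 in dermal papilla or sheath-like (1.89%), 2 of 13 in lymphatic endothelial-like (2.75%) and 1 of 14 in fibroblast-like cells (2.64%). Higher were 2 in mural-like (3.33%), 2 in dermal papilla or sheath-like (2.64%) and 2 in lymphoid-like cells (3.29%). None was higher in Schwann-like (2.71%), fibroblast-like (2.12%), lymphatic endothelial-like (2.33%), vascular endothelial-like (3.62%) or myeloid-like cells (2.7%). Both comparisons share the young control library.

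The laminin gamma chain of most basement membranes, Lamc1 (chr1, 153218922 to 153332786, minus strand), had a ratio below 1 in 8 of 8 classes, with 6 intervals below 1. It passed the rule in Schwann-like cells, at 63.9 CPM against 181 (0.353, 0.254 to 0.480), mural-like cells, at 91.7 against 207 (0.443, 0.339 to 0.571), and vascular endothelial-like cells, at 63.4 against 145 (0.437, 0.334 to 0.566). Fibroblast-like cells, with the highest level, had 163 CPM against 223 (0.732, 0.643 to 0.830). In the knockout it was at 159, 155 and 158 CPM in the Schwann-like, mural-like and vascular endothelial-like cells, with a ratio below 1 in 6 of 8 classes. Within clusters the old ratio was below 1 in 18 of 22. Old mural-like cells were mostly smooth muscle-like (276 of 315, against 78 of 390 in the young control), and 109 of 335 old vascular endothelial-like cells were in the cluster that held 564 of 630 young ones. With clusters weighted as in the young control, 3 of the 8 mural-like calls and 0 of the 4 vascular endothelial-like calls passed. The mural-like calls lost were Lamc1 (0.546), Lamb2 (0.586), Itga1 (0.540), Itga4 (0.517) and Itga6 (1.58), and those of vascular endothelial-like cells Lamc1 (0.463), Lamb1 (0.603), Itga6 (0.581) and Itga1 (0.708).

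Of the other laminin chains, Lamb1, Lama5 and Lamb2 passed on the lower side in endothelial-like or mural-like cells, and none in Schwann-like cells, where Lamb1 was at 224 CPM against 406. Lamb1 was at 79.0 CPM against 198 in the lymphatic endothelial-like class (0.399, 0.325 to 0.486) and 47.1 against 112 in vascular endothelial-like cells (0.420, 0.307 to 0.566). Mural-like Lama5 was at 74.7 CPM against 264 (0.283, 0.212 to 0.372) and Lamb2 at 169 against 391 (0.432, 0.356 to 0.521). Lama5 was lower within the Rgs5-led cluster too, at 125 CPM against 353 (0.353, 0.219 to 0.541). Lama4 was higher by the rule in dermal papilla or sheath-like cells, at 103 CPM against 47.0 (2.19, 1.84 to 2.62). That call stood in 11 of 12 alternatives (1.51 to 2.59) and was lost with cells thinned to 1500 UMIs. In this class 206 young control cells held 3852258 UMIs (median 3836.5 a cell), and 1230 old ones 4375356 (median 1928). In vascular endothelial-like cells Lama4 was at 76.1 CPM against 138 (0.553, 0.430 to 0.703).

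Of the laminin receptors, Itga6 was at 303 CPM against 742 in Schwann-like cells (0.409, 0.353 to 0.472) and 222 against 573 in vascular endothelial-like cells (0.387, 0.337 to 0.444). Both Schwann-like clusters were as low, at 324 CPM against 837 in the myelinating and 245 against 614 in the Scn7a-led one. In keratinocyte-like cells Itga6 was at 375 CPM against 619 (0.607, 0.587 to 0.627), and in the basal cluster with the highest level at 694 against 1024 (0.678, 0.644 to 0.713). No chain passed the rule in that class, where the rule took 0.962% of all genes as lower and 1.15% as higher, though Lamb3 did within cluster 4, at 40.2 CPM against 92.0 (0.437, 0.363 to 0.523). Itga7 was at 44.9 CPM against 103 in Schwann-like cells (0.435, 0.291 to 0.634) and 53.7 against 214 in mural-like cells (0.251, 0.178 to 0.346).

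Itga1 had an old control ratio below 1 in 7 of 8 classes, with 6 intervals below 1. It passed in Schwann-like cells, at 65.3 CPM against 211 (0.309, 0.224 to 0.418), dermal papilla or sheath-like cells, at 56.7 against 145 (0.392, 0.336 to 0.456), mural-like cells, at 217 against 552 (0.394, 0.333 to 0.464), and vascular endothelial-like cells, at 183 against 405 (0.452, 0.387 to 0.526). In lymphatic endothelial-like cells it was at 95.4 CPM against 77.4 (1.23, 0.997 to 1.52). The vascular clusters were unequal, with 305 CPM against 439 in the larger cluster (0.695, 0.554 to 0.863) and 138 against 132 in the other.

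Of RGD and related receptors, Itgb5 passed in no class and had a ratio above 1 in 4 of 7, and Itgav passed in 1 and had a ratio above 1 in 5 of 9. Itga5 had a ratio below 1 in 6 of 6 classes and passed in fibroblast-like cells, at 20.4 CPM against 59.8 (0.340, 0.233 to 0.482). Itga9 in lymphatic endothelial-like cells was at 89.9 CPM against 276 (0.325, 0.269 to 0.391). Itgav in Schwann-like cells was at 166 CPM against 387 (0.429, 0.351 to 0.521). Itgb8 was at 20.6 CPM against 41.5 in the dermal papilla or sheath-like class (0.495, 0.378 to 0.645). That call stood in 9 of 12 alternatives (0.367 to 0.519), and was lost with cells thinned to 1500 UMIs among others. Itgb3, a partner of alpha V, was at 5.44 CPM against 37.6 in Schwann-like cells (0.145, 0.0382 to 0.388) and 6.84 against 39.1 in lymphoid-like cells (0.175, 0.0855 to 0.323). Itgb1 had a ratio below 1 in 8 of 9 classes, the reverse of its knockout pattern, and passed in lymphoid-like cells, at 166 CPM against 336 (0.494, 0.432 to 0.565). That call stood in 6 of 12 alternatives, with ratios of 0.438 to 0.561, and both other scalings ended it. Fibroblast-like cells had 279 CPM against 261 (1.07, 0.965 to 1.18). Within clusters the Itgb1 ratio was below 1 in 18 of 26.

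Of the leukocyte chains Itga4, Itgal and Itgam passed, and Itgae, Itgax, Itgb2 and Itgb7 passed nowhere. Itga4, the homing receptor chain for Vcam1, was at 2.49 CPM against 51.5 in lymphoid-like cells (0.0483, 0.0130 to 0.126), from 4 UMIs in 4 of 437 cells. In myeloid-like cells it was at 44.1 CPM against 138 (0.319, 0.247 to 0.405), and in mural-like cells at 18.3 against 52.2 (0.351, 0.186 to 0.615). Itgal was at 180 CPM against 399 in lymphoid-like cells (0.450, 0.395 to 0.511) and 25.0 against 55.6 in myeloid-like cells (0.450, 0.318 to 0.623). Itgam, the macrophage and neutrophil chain, was at 42.9 CPM against 90.0 in myeloid-like cells (0.477, 0.367 to 0.612). In lymphoid-like cells Itgae was at 409 CPM against 481 (0.851, 0.777 to 0.932), Itgb7 at 283 against 271 (1.05, 0.934 to 1.17) and Itgb2 at 88.3 against 157 (0.563, 0.465 to 0.677). Myeloid-like Itgax was at 50.1 CPM against 53.2 (0.940, 0.728 to 1.20). Both classes were filled by different clusters. The Cd207-led cluster 23 held 367 of 503 old and 102 of 832 young myeloid-like cells, and cluster 5 held 161 of 437 old and 1013 of 1190 young lymphoid-like cells. With clusters weighted as in the young control, none of the 3 myeloid-like calls passed (Itga4 0.644, Itgal 0.767, Itgam 0.506), nor did lymphoid-like Itgal (0.582), while lymphoid-like Itga4 did (0.0518). Itgal passed within none of the clusters of these classes (0.548 to 0.791). Within the largest of the myeloid-like clusters of the young control Itga4 was at 117 CPM against 183 (0.641, 0.486 to 0.833).

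Of the 6 pairs on the higher side 5 were Itgb4, Itga6 or Lamb3, chains of the hemidesmosome receptor and the epidermal laminin, of which Itgb4 and Itga6 are also abundant in Schwann-like cells. Itgb4 was at 93.0 CPM against 22.3 in mural-like cells (4.17, 2.84 to 6.16), 46.9 against 22.3 in the dermal papilla or sheath-like class (2.10, 1.62 to 2.73) and 39.8 against 14.8 in lymphoid-like cells (2.68, 1.84 to 3.92). Lamb3 was at 64.0 CPM against 31.0 in lymphoid-like cells (2.07, 1.57 to 2.72), and Itga6 at 115 against 56.5 in mural-like cells (2.04, 1.53 to 2.71). The lymphoid-like calls of Itgb4 and Lamb3 each stood in 8 of 12 alternatives, and were lost without the richest cell of each library (2.55 and 1.86) and with clusters weighted as in the young control (1.16 and 1.63). Over the alternatives their ratios went down to 1.01 and 1.04. The sixth is Lama4 in dermal papilla or sheath-like cells. The Itgb4 call in that class stood in 8 of 12 alternatives (0.683 to 3.35), reversed in 2 and was lost with cells thinned to 1500 UMIs. Keratinocyte markers, summed and set against keratinocyte-like cells of the same library, stood at 22.5% in old and 7.36% in young mural-like cells, 14.1% and 5.86% in dermal papilla or sheath-like cells, and 15.1% and 10.5% in lymphoid-like cells. Their part in these ratios was not tested. Schwann markers, at 5.63% in old and 0.645% in young mural-like cells, moved with Itgb4 and Itga6 as well.

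A cluster without a class, led by Sfrp5, Apod, Ebf2 and Ptch1 and nearest to fibroblasts (162, 41 and 81 cells), had the highest Itgb4 of any cluster with at least 10 cells, in each library. Itga6 was at 952, 1679 and 312 CPM in it, Itgb4 at 858, 1185 and 521 CPM, and Lamb2 at 459, 694 and 297 CPM. The knockout ratio of Itga6 was 1.76 (1.55 to 2.01) and the old ratio 0.328 (0.248 to 0.426), which passed the rule. A cluster of 1881 knockout cells led by Selp and Sele, genes of inflamed venules, had Itgb1 at 494, Itga6 at 206 and Itga1 at 171 CPM, and 4 young control cells, too few to compare.

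Genes that work with the chains were read from 6 lists of 55 genes in all. The lists were chosen with earlier results of these data known, so their shares are not independent of that choice. Of 315 gene and class pairs, 18 were higher (5.71%) and 33 lower (10.5%) in the knockout, where the rule took 2.99% and 4.74% over all genes. In the old control 15 were higher (4.76%) and 35 lower (11.1%), beside 2.67% and 3.44% over all genes. Proteins of the adhesion plaque, which tie integrins to actin, had 6 higher (4.92%) and 1 lower (0.82%) of 122 pairs in the knockout, beside 2 and 6 for the old control. Other laminin receptors had 3 higher (12.5%) and 0 lower of 24 pairs in the old control, and none of either in the knockout. Each was Bcam, in Schwann-like, lymphatic endothelial-like and myeloid-like cells. The hemidesmosome list had 4 higher (7.69%) and 1 lower (1.92%) of 52 pairs in the old control. Of the higher, 3 were Col17a1, in Schwann-like, lymphatic endothelial-like and mural-like cells, and 1 was Cd9, in myeloid-like cells. The lower was Col17a1 in fibroblast-like cells. Old mural-like cells also had more of the keratinocyte markers (above), and the part of keratinocyte RNA in these calls was not tested. Proteins that compete with talin or hold integrins inactive had none called in 20 pairs of either comparison. The basement membrane partners of laminin had 1 higher and 9 lower (17.3%) of 52 pairs in the knockout, beside 1 and 19 (36.5%) for the old control. Among these, the main collagen IV chains Col4a1 and Col4a2 were lower in 3 and 2 classes of the knockout and in 5 and 5 classes of the old control. In fibroblast-like cells Col4a2 was at 62.2 CPM in the knockout (0.325, 0.229 to 0.447), 85.7 in the old control (0.448, 0.375 to 0.532) and 191 in the young control. In vascular endothelial-like cells of the old control Col4a1 was at 131 CPM against 775 (0.170, 0.142 to 0.201), Col4a2 at 61.6 against 410 (0.150, 0.116 to 0.192), and the perlecan gene Hspg2 at 176 against 478 (0.367, 0.314 to 0.428). Of that class, 109 of 335 old and 564 of 630 young cells were in the same cluster. These partner genes were not read within clusters, and the part of this mix in their ratios was not tested.

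Of 45 pairs of integrin ligands outside laminin, 10 were higher (22.2%) and 12 lower (26.7%) in the knockout, beside 2.99% and 4.74% over all genes. In the old control 5 were higher (11.1%) and 9 lower (20%), beside 2.67% and 3.44%. This list too was chosen with earlier results known. In the knockout Vcam1 was higher in 4 classes and Tnc in 3, and Fn1 and Cdh1 were lower in 5 each. Spp1 and Vtn each were higher in 1 class and lower in 1. The Cdh1 calls were in Schwann-like, dermal papilla or sheath-like, lymphatic endothelial-like, myeloid-like and vascular endothelial-like cells. Keratinocyte markers were lower in each of these classes, as given below for Col17a1, and their part was not tested. Fibronectin, Fn1, the ligand of alpha 5 beta 1, was at 169 CPM in knockout fibroblast-like cells against 1215 (0.139, 0.113 to 0.168) and was lower in 5 classes of each comparison. Vcam1 and Icam1, the endothelial ligands of Itga4 and Itgal integrins, were at 677 CPM against 125 (5.42, 4.61 to 6.37) and 1024 against 249 (4.11, 3.64 to 4.65) in knockout vascular endothelial-like cells. In fibroblast-like cells Vcam1 was at 229 CPM in the knockout (2.06, 1.72 to 2.45), 35.2 in the old control (0.316, 0.238 to 0.412) and 111 in the young control. Of the hemidesmosome list 11 of 52 pairs (21.2%) were lower in the knockout, and 8 of them were Col17a1, a basal keratinocyte gene. Those 8 lay in classes other than the keratinocyte-like. Keratinocyte markers were lower there as well (0.589% to 2.83% of the keratinocyte-like level, against 5.16% to 13.7% in the young control). In keratinocyte-like cells Dst, whose epidermal form links beta 4 to keratin, was at 617 CPM against 1715 (0.360, 0.337 to 0.384). The basal cluster held 6 of 102 knockout and 987 of 2305 young control cells of that class. Dst was not read within clusters, and the part of this mix in its ratio was not tested.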

How the data were processed

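The authors deposited raw UMI counts per gene and barcode for each library, which the file headers credit to Cell Ranger 3.1.0. The submitters' processing notes list the build mm10 and Seurat 3.1.5. Per the labels' protocols, skin was digested with collagenase I, strained at 70 µm and captured with the Chromium 3' kit v3.1. The sources do not state the selection of barcodes. The libraries held 15290, 25348 and 22108 barcodes with 95274423, 57767761 and 52579262 UMIs (young control, knockout, old control), a median of 3568.5, 1669 and 1199 per barcode. Kept were 11722, 9408 and 12074 barcodes, those with 500 or more genes, 1000 or more UMIs and a mitochondrial share of no more than 15%. Scrublet's automatic threshold marked 3.55%, 0% and 0.0166%, so it had not worked, and in each library the top 8% by score were taken out, which left 30547 cells.

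Cells were scaled to 10000 counts and clustered (scanpy 1.11.5, leidenalg 0.10.2) on 2000 variable genes, 30 components and 20 neighbours at resolution 1. The integrin and laminin genes, Malat1, Gm42418, Xist, ribosomal protein genes and mitochondrial genes were kept out of the variable genes. Of 39 clusters 23 were named: at least 3 markers of a class at 2-fold or more over the median cluster, a log2 margin of 1 to the next class, an own marker among the 10 leading genes, no more leading genes of another class, and not a share of 0.5 or more of the markers of 3 or more other classes. The naming thresholds were chosen with the cluster tables in view. Counts were summed by class and library. CPM carry exact Poisson intervals and ratios the exact interval of the binomial split of both counts. Log2 ratios add 0.5 to each count. With 1 library a group no p-value is given. Gene coordinates are from GENCODE M21 (GRCm38), counted from 1. Exons of 11 of the 38 chains overlap those of another listed gene, on the same strand for Itga1, Itga10 and Itgam. The gene that overlaps Itga1 had 3 to 7 UMIs in a library.

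Members and lists were chosen with earlier results of these data known. The levels of 1 chain are not reported here. Named are chains at 100 CPM or more in a class, chains past the size rule, and of the partner lists up to 4 genes a class in fibroblast-like, keratinocyte-like and vascular endothelial-like cells, with those needed to say what a list holds. Alternatives were 2 other scalings (edgeR 4.0.16 TMM, median of ratios), no minimum level, stricter cells, doublets kept, cells thinned to 1500 UMIs, other clusterings, fixed cluster weights and, added after the data were seen, other naming, the chains kept among the variable genes, and single rich cells left out.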

Additional observations from a re-analysis of the deposited data

Results flagged for a closer look

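In 3 cases a chain passed the size rule in opposite directions in different cell classes of the same comparison. The difference between the classes was not tested, since each group is 1 library. In the knockout Itgb4 was higher in mural-like cells (ratio 2.45) and lower in dermal papilla or sheath-like cells (ratio 0.260, from 11 knockout UMIs). The mural-like call was lost with clusters weighted as in the young control, and the other reversed with doublets kept (2.66). In the knockout Itgb5 was higher in myeloid-like cells (ratio 4.93) and lower in Schwann-like (0.470), dermal papilla or sheath-like (0.453) and mural-like cells (0.441). Without the cell richest in Itgb5 in each library, the myeloid-like ratio was 3.83. The Schwann-like call of Itgb5 stood in 5 of 12 alternatives, and the mural-like one was lost with clusters weighted as in the young control. In the old control Itga6 was higher in mural-like cells (ratio 2.04) and lower in Schwann-like (0.409) and vascular endothelial-like cells (0.387). The mural-like call stood in 5 of 11 alternatives and reversed in 1 (0.898). The vascular endothelial-like call stood in 9 of 11 and the Schwann-like call in 12 of 12. Mural-like cells also differed between libraries in their mix of clusters and in keratinocyte and Schwann markers, whose part was not tested.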

How the results depend on the processing

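No paired analysis was possible because each group is 1 library. The knockout had 7 chain and class pairs higher and 15 lower, and the old control 6 and 28. With no minimum level the knockout had 12 higher and 29 lower and the old control 17 higher. With stricter cells the old control had 3 higher. With doublets kept it had 2 higher and 18 lower. With cells thinned to 1500 UMIs, which leaves out shallow cells, the knockout had 3 higher and 6 lower. With each library clustered alone the knockout had 20 higher and the old control 12. With clusters weighted as in the young control the knockout had 4 higher and the old control 3 higher and 18 lower. Without the richest cell of each chain and library the counts were 6 and 19 in the knockout and 4 and 28 in the old control. All other counts stayed within 1.5 times those reported, those of the partner lists and of chains at 100 CPM among them.

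Of the 22 knockout pairs 1, fibroblast-like Lamc3 (3.43 to 12.4), passed the rule under every alternative, and 19 kept their direction. Of the 34 old control pairs 8 passed throughout: Schwann-like Lamc1, Itga6 and Itgav, dermal papilla or sheath-like Itga1, lymphatic endothelial-like Itga9 and Lamb1, lymphoid-like Itga4 and mural-like Lama5. Of these 34, 32 kept their direction. The reversals in the knockout were Itgb4 in dermal papilla or sheath-like cells with doublets kept (2.66), Itga5 there with thinned cells (0.982), and myeloid-like Itgb8 with stricter cells (0.637), with the chains kept among the variable genes (0.214) and without the richest cell (0.284). In the old control they were Itgb4 in dermal papilla or sheath-like cells with each library clustered alone (0.683) and at resolution 2 (0.742), and mural-like Itga6 at resolution 2 (0.898). Except for the richest cell, the cause was not tested. Mural-like cells had no value with doublets kept, and vascular endothelial-like cells none with each library clustered alone. The other scalings moved log2 ratios by -0.13 to 0.16. Low counts limit the knockout classes of under 110 cells, and intervals leave out differences between animals.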
